A study of Homo sapiens with 101 samples.

Results

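The 7 genes FADS3, GREB1, GPC1, MTURN, IL12A, SERPINB5 and NECTIN4 were picked because earlier results of the same arrays showed them higher after most of 11 compounds, outside the best known p53 and NRF2 genes. They were 7 of 19774 genes with a probe set of their own on the array, and 13 of 54613 probe sets (array controls aside) stood for 1 of them alone. They were chosen by the measured differences between each compound and its control, so those differences, and the counts of them past a threshold, are given below as a description of the genes and as support for nothing. The differences between compounds were not themselves a criterion of the choice and were tested. They are built from the same samples, so a choice for a rise in most compounds bears on them too.

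The samples were HT1080 cells, an established human fibrosarcoma line, given 1 dose of 1 compound or a control. The authors set doses to raise total p53 by 1.5-fold, and the exposure time is not given in the sources used here. In 1 set, 6 compounds were compared with the control labelled DMSO_pooled (n = 6). These were ethylnitrosourea (ENU, an alkylating agent, 2 mM, n = 6), GAD (2 mM, n = 6), neocarzinostatin (NCS, which breaks DNA strands, 10 ng/ml, n = 6), hydrogen peroxide (H2O2, 100 µM, n = 5), mitomycin C (MMC, a DNA crosslinker, 0.1 µM, n = 5) and tert-butylhydroquinone (tBHQ, an activator of NRF2, 200 µM, n = 6). Their tie to that control was inferred from the values, and what was pooled in it is not stated. The other 5 compounds had a control of their own, with n = 6 on each side. They were BRO (600 µM, against BRO_DMSO), methyl methanesulfonate (MMS, an alkylating agent, 200 µM, against MMS_CTL), curcumin (CUR, 10 µM, against CUR_DMSO), etoposide (ETP, a topoisomerase II poison, 0.3 µM, against ETP_DMSO) and quercetin (QUE, a flavonol, 30 µM, against QUE_DMSO). GAD and BRO are not spelled out by the labels, and the other names are the usual readings of the labels' abbreviations. All stocks were in DMSO per the labels' protocols, so the compound samples carried the solvent too, and what MMS_CTL received is not stated. The doses differed in kind and size between compounds, so a difference between 2 compounds is one between 2 treatments at the doses used. The labels do not say that replicates were separate cultures, so p-values and errors measure the spread between these samples.

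The 7 genes belong to no single pathway. NECTIN4 is a cell adhesion molecule of the nectin family and GPC1 (glypican 1) a heparan sulfate proteoglycan anchored at the cell surface. SERPINB5 (maspin) is a clade B serpin of epithelia with no known protease inhibition, and IL12A encodes the p35 subunit that interleukin 12 and interleukin 35 share. FADS3 is a desaturase that acts on sphingoid bases, GREB1 is a cofactor and target of the estrogen receptor, and MTURN (maturin) is known from frog neural differentiation. SERPINB5 has been described as a p53 target.

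The values are log2 expression summaries of probe sets, and a difference of 1 is a 2-fold difference. A group mean under 4 was taken as background, so that against such a mean only a lower bound of the fold is given. Median array values ran from 2.88 to 3.54 over the 101 arrays. By its array quantiles each set looked normalized apart, so levels of different sets are not compared. Of the mesenchymal markers, 8 of 10 had a mean of 4 or more in all 17 groups, with VIM at 12.81 to 13.25, while THY1 was under 4 in all and COL1A2 reached 4 in 15. All 8 epithelial markers analysed were under 4 in every group, with the highest mean at 3.31. Of the 7 blood and myeloid markers, CD68 alone reached 4. In earlier results of these data 6 libraries stood apart from their groups, those labelled ETP 2, QUE 2, QUE 3, MMS_CTL 3, CUR_DMSO 5 and H2O2 3, and values without them are given where they change a call. Fewer cells of a kind and less RNA per cell cannot be told apart in such bulk samples.

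Of the 13 probe sets, 9 had at least 1 group mean of 4 or more and entered the tests, among 25479 probe sets in all. MTURN 226018_PM_at and GPC1 202755_PM_s_at passed that filter through compound groups alone, since all 6 of their control means were under 4. The other 4 probe sets, 2 of GREB1 and 1 each of MTURN and SERPINB5, had means of 3.04 or less in every group, and their differences from control lay between -0.22 and 0.25. FADS3 and GPC1 each had 2 tested probe sets. Unless another is named, the values below are those of the gene's brightest probe set, by the mean of all arrays.

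The genes lie on 6 chromosomes in GRCh38.p14. NECTIN4 spans chr1:161070998-161089558, GREB1 chr2:11482888-11642788, GPC1 chr2:240435663-240468076, IL12A chr3:159988835-159996019, MTURN chr7:30134986-30162762, FADS3 chr11:61873526-61892224 and SERPINB5 chr18:63476958-63505085. RefSeq promoters of that build were matched for 6 of the 7 genes, all but GREB1, and the 250 bases before the start were searched on both strands. The sequences of 3 promoters are shown, those of NECTIN4 and SERPINB5, whose differences over the 11 compounds were most alike among the 7 genes, and that of MTURN, the 1 gene that was highest in GAD. Capitals mark the GC box (GGGCGG on either strand). The NECTIN4 window is chr1:161089559-161089808 on the minus strand, the SERPINB5 window chr18:63476708-63476957 on the plus strand and the MTURN window chr7:30134736-30134985 on the plus strand, each written 5′ to 3′ on the strand of its gene.
NECTIN4: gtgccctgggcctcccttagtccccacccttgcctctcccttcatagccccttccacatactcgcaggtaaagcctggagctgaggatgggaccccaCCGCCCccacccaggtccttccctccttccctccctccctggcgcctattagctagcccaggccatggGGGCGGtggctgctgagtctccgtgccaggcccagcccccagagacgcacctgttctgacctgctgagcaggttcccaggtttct
SERPINB5: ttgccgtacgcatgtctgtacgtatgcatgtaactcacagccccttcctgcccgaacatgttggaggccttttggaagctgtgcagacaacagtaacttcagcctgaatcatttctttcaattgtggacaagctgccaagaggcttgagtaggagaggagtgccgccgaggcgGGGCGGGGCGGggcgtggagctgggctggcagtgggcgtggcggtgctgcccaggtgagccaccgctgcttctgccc
MTURN: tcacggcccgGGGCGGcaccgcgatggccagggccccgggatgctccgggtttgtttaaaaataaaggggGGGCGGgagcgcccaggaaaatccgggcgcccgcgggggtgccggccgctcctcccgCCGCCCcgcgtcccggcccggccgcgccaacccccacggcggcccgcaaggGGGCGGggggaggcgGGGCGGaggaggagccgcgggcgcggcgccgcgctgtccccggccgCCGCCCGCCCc

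The GC box occurred in all 6 promoters, against 42.6% of 35116 promoters in the table. It was found 2 times each in NECTIN4 and SERPINB5, 7 times in MTURN, 4 times each in FADS3 and GPC1, and 3 times in IL12A. Neighbouring copies overlapped by a base in SERPINB5 and GPC1 and by more in MTURN. None of the 6 windows held an exact match to the p53 half-site consensus, which 5.57% of all promoters held. The antioxidant response element core TGACNNNGC, in 10.9% of all promoters, and the C/EBP-ATF element TGATGNAA, in 3.14%, were also in none of the 6. Only exact matches were counted. In SERPINB5 the stretch gaacatgttg departs from the p53 half-site consensus only in its last base, where the consensus has C or T. Stretches that depart from it in no more than a base are also in NECTIN4 (gagcaggttc) and MTURN (gggtttgttt). Such near matches were not counted over all promoters, so none of them is particular to its gene. These matches describe letters in a short window and no binding was measured. The share of G and C was lowest in SERPINB5 and reached 64.0% in IL12A, 65.2% in NECTIN4, 80.4% in FADS3, 81.6% in MTURN and 84.0% in GPC1, against a median of 58.0% over all promoters.

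Counted over the 7 genes and 11 compounds, 59 of 77 differences from control were called higher and none lower (3.69% lower over all probe sets and compounds). A difference was called at an adjusted p under 0.05 over all probe sets tested and a fold of at least 1.5. The fold was the measured one, also where a mean was under 4, as in every control of MTURN. Over all probe sets tested and all compounds, 3.82% were called higher, and 61 probe sets (0.239%) were called higher in 7 or more compounds. With 1 probe set per gene, 38 of 11496 genes (0.331%) were called higher in 7 or more compounds, and NECTIN4, with 7, was at the edge of that count while FADS3 was called in all 11. The choice of the genes fixed these counts, and nothing is read from them.

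All 7 genes were called higher in ENU (4.78% of all probe sets tested), GAD (13.4%), NCS (1.08%), H2O2 (0.495%), MMS (4.36%), ETP (1.46%) and QUE (7.09%). BRO had 4 of the 7 called higher (3.14%), and tBHQ (5.11%) and CUR (1.05%) had 3 each. MMC had none (0.0863%), although its 7 differences were all above 0, with a median of 0.72. Without the libraries that stood apart, which include H2O2 3, the H2O2 calls of SERPINB5, GREB1, FADS3, IL12A and MTURN were lost. So was the CUR call of GREB1. The H2O2 differences were then 1.25 for SERPINB5, 1.29 for GREB1, 1.09 for FADS3, 0.79 for IL12A and 0.61 for MTURN. Their adjusted p in limma was 0.052, 0.06, 0.05, 0.11 and 0.099, in that order. GREB1 in CUR then differed by 0.93 (adjusted p = 0.053 in limma). All 6 stayed past the fold minimum. The median difference of the 7 genes was 2.00 in ENU, 1.71 in ETP, 1.42 in QUE, 1.11 in GAD, 1.10 in MMS, 1.05 in H2O2, 0.96 in NCS, 0.83 in BRO, 0.75 in CUR and 0.48 in tBHQ.

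Every compound sample lay above every control sample for all 7 genes in ENU (7.52% of all probe sets tested) and GAD (19.8%). The same held for 6 genes in H2O2 (1.78%), MMS (8.6%), ETP (2.12%) and QUE (4.27%), for 4 in NCS (2.06%), for 3 in BRO (6.18%) and CUR (2.14%), for 2 in tBHQ (7.73%) and for 1 in MMC (0.789%). The single gene without overlap in MMC was FADS3. In tBHQ the 2 were FADS3 and GPC1.

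**Figure D1:**
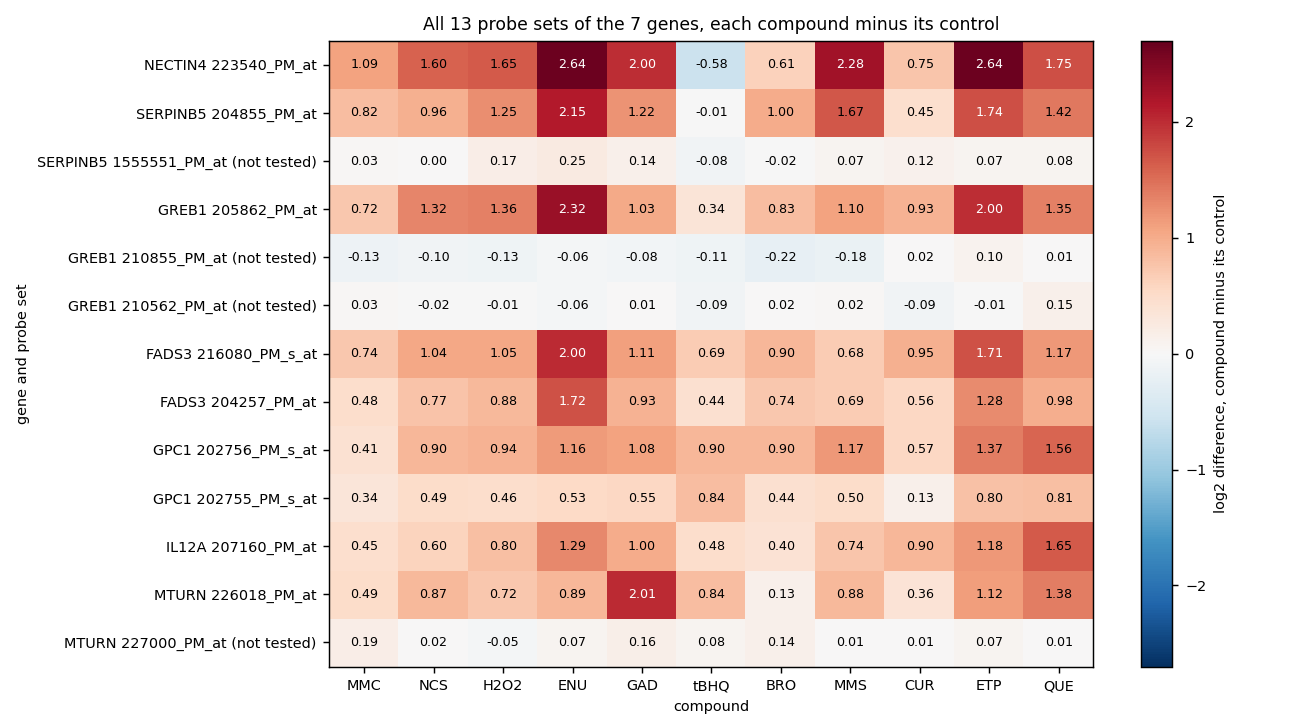
Log2 difference from its control for each of the 13 probe sets (rows) and 11 compounds (columns), with red for higher and blue for lower in the compound samples. NECTIN4 runs from -0.58 in tBHQ to 2.64 in ENU and ETP, while the 4 probe sets that were not tested stay between -0.22 and 0.25.

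NECTIN4 (223540_PM_at), the nectin family adhesion molecule, had the widest range of the 7 genes. In ENU its samples had a lowest value of 8.65, a median of 8.82 and a highest of 9.21, against 5.84, 6.11 and 6.95 in DMSO_pooled. In tBHQ the 3 values were 4.85, 5.84 and 6.08. All ENU samples lay above all control samples, whereas the tBHQ samples overlapped the controls and 3 of 6 lay below all of them. The difference from control was 2.64 ± 0.17 (SE) in ENU, 2.00 ± 0.15 in GAD, 1.65 ± 0.23 in H2O2 and 1.60 ± 0.18 in NCS. MMC gave 1.09 ± 0.20, with samples at 6.76, 7.25, 7.42, 7.55 and 7.67 of which 4 were above every control. In tBHQ it was -0.58 ± 0.22, the lowest value of any of the 7 genes.

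In the sets with a control of their own, NECTIN4 in ETP had a lowest, median and highest value of 6.88, 8.22 and 8.36, against 4.83, 5.34 and 6.01 in ETP_DMSO. The ETP sample at 6.88 was replicate 3, and the other 5 were at 8.05 or more. In MMS the 3 values were 8.59, 8.78 and 9.07, against 6.07, 6.59 and 7.01 in MMS_CTL. Neither pair of groups overlapped. The differences were 2.64 ± 0.25 in ETP, 2.28 ± 0.16 in MMS and 1.75 ± 0.19 in QUE. BRO and CUR overlapped their controls, with 4 of 6 samples above all of them in each, and differed by 0.61 ± 0.25 and 0.75 ± 0.23. NECTIN4 was called higher in 7 compounds. With the replicate number as a block, MMC (1.07), BRO (0.61) and CUR (0.75) met the same thresholds, which describes a contrast that the choice of the gene used.

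GPC1 (202756_PM_s_at), the glypican, had the narrowest range. Its difference from control ran from 0.41 ± 0.12 in MMC to 1.56 ± 0.12 in QUE, with 1.37 ± 0.17 in ETP, 1.17 ± 0.11 in MMS and 1.16 ± 0.13 in ENU. In QUE the samples had a lowest value of 8.39, a median of 8.93 and a highest of 9.07, against 7.11, 7.24 and 7.58 in QUE_DMSO. In tBHQ they were at 7.49, 7.65 and 7.69, against 6.42, 6.70 and 7.10 in DMSO_pooled. The compound samples were above all controls in 10 of 11 compounds, the exception being MMC with samples at 7.05, 7.09, 7.14, 7.19 and 7.22. The tBHQ difference of 0.90 ± 0.11 stood close to that of NCS, 0.90 ± 0.12, and H2O2, 0.94 ± 0.15. GPC1 was called in 9 compounds, all but MMC and CUR (0.57 ± 0.14). Its second probe set, 202755_PM_s_at, was under 4 in every control and differed by 0.13 in CUR to 0.84 in tBHQ. It was called in 3 compounds, tBHQ, ETP and QUE. In NCS (0.49) and H2O2 (0.46) this probe set differed less than in tBHQ. Bounds could be given there for QUE (at least 0.61), ETP (at least 0.50), MMS (at least 0.26) and tBHQ (at least 0.21), and in the other 7 compounds both means were under 4.

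SERPINB5 (204855_PM_at), the clade B serpin, had control means of 7.51 to 8.27, well above background. In ENU its samples had a lowest value of 10.15, a median of 10.37 and a highest of 10.85, against 7.85, 7.97 and 9.09 in DMSO_pooled. In tBHQ the 3 values were 7.78, 8.18 and 8.85. ENU lay clear of the controls and tBHQ overlapped them, with 1 of 6 samples below all of them and none above. The difference was 2.15 ± 0.21 in ENU, 1.25 ± 0.21 in H2O2, 1.22 ± 0.19 in GAD, 0.96 ± 0.21 in NCS and 0.82 ± 0.23 in MMC, and in tBHQ it was -0.01 ± 0.24.

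In ETP, SERPINB5 had 8.89, 9.96 and 10.62 as lowest, median and highest value, against 7.60, 8.08 and 8.72 in ETP_DMSO. In BRO it had 8.31, 8.61 and 8.75, against 7.25, 7.63 and 7.92 in BRO_DMSO. Both compounds lay above all their controls. The differences were 1.74 ± 0.25 in ETP, 1.67 ± 0.18 in MMS, 1.42 ± 0.19 in QUE, 1.00 ± 0.12 in BRO and 0.45 ± 0.22 in CUR. In CUR 5 of 6 samples were above all controls and replicate 5, at 7.61, was not. SERPINB5 was called in 8 compounds, and with the replicate block MMC (0.74) met the same thresholds.

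IL12A (207160_PM_at), the p35 subunit, differed most in QUE. The QUE samples had a lowest value of 4.96, a median of 6.71 and a highest of 7.09, against 4.47, 4.76 and 5.06 in QUE_DMSO. The lowest was replicate 2, which overlapped the controls, and the other 5 samples were above all of them. The difference was 1.65 ± 0.29 in QUE, 1.29 ± 0.17 in ENU, 1.18 ± 0.26 in ETP, 1.00 ± 0.11 in GAD and 0.90 ± 0.19 in CUR. In ETP replicate 2, at 7.21, was above the other 5 samples, which lay between 5.46 and 5.94. The smallest differences were 0.40 ± 0.11 in BRO, 0.45 ± 0.15 in MMC and 0.48 ± 0.15 in tBHQ, and these were the 3 compounds without a call. NCS (0.60 ± 0.13), MMS (0.74 ± 0.20) and H2O2 (0.80 ± 0.17) made up the 8 that were called.

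FADS3 (216080_PM_s_at), the sphingoid base desaturase, was called in 10 compounds, all but MMC. In ENU its samples had a lowest value of 7.30, a median of 7.47 and a highest of 7.81, against 5.19, 5.54 and 5.72 in DMSO_pooled. In tBHQ the 3 values were 5.84, 6.28 and 6.47. Both compounds lay above all controls, and so did MMC, with samples at 5.97, 6.10, 6.13, 6.45 and 6.55. The difference was 2.00 ± 0.11 in ENU and 1.71 ± 0.21 in ETP. The other 9 compounds lay close together, between 0.68 ± 0.13 in MMS and 1.17 ± 0.24 in QUE. The second probe set, 204257_PM_at, ran the same way, from 0.44 ± 0.09 in tBHQ to 1.72 ± 0.10 in ENU. It was called in 8 compounds, all but MMC, tBHQ and CUR. In MMC (0.48 ± 0.11) it overlapped the controls, with 4 of 5 samples above all of them.

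GREB1 (205862_PM_at), the estrogen receptor cofactor, had in ENU a lowest value of 8.10, a median of 8.59 and a highest of 8.71, against 5.70, 6.19 and 6.79 in DMSO_pooled. In tBHQ it had 5.80, 6.63 and 7.04. In ETP it had 7.57, 7.93 and 8.12, against 4.93, 5.99 and 6.45 in ETP_DMSO. ENU and ETP were clear of their controls, and in tBHQ 2 of 6 samples were above all controls. The difference was 2.32 ± 0.18 in ENU and 2.00 ± 0.23 in ETP, and from 0.72 ± 0.20 in MMC to 1.36 ± 0.24 in H2O2 in 8 of the other 9 compounds. In tBHQ it was 0.34 ± 0.22. GREB1 was called in 9 compounds, all but MMC and tBHQ. Its other probe sets, 210855_PM_at and 210562_PM_at, were at background in all groups.

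MTURN (226018_PM_at), known from neural differentiation in frogs, was at background in all 6 controls, so its folds are bounds. In GAD its samples had a lowest value of 5.36, a median of 5.52 and a highest of 5.66, against 3.31, 3.46 and 3.87 in DMSO_pooled. In QUE they had 4.37, 4.75 and 5.94, against 3.30, 3.57 and 4.12 in QUE_DMSO. Neither pair overlapped. The measured difference was 2.01 ± 0.09 in GAD, which bounds it at 1.51 or more, and 1.38 ± 0.26 in QUE, at least 0.98. ETP gave at least 0.58, MMS at least 0.57 and ENU at least 0.40. NCS gave at least 0.38, tBHQ at least 0.35 and H2O2 at least 0.23. With GAD and QUE these made up the 8 compounds called, by their measured differences. Of the 8 bounds only those of GAD and QUE reach the 1.5-fold minimum. In BRO, CUR and MMC both means were under 4.

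**Figure D2:**
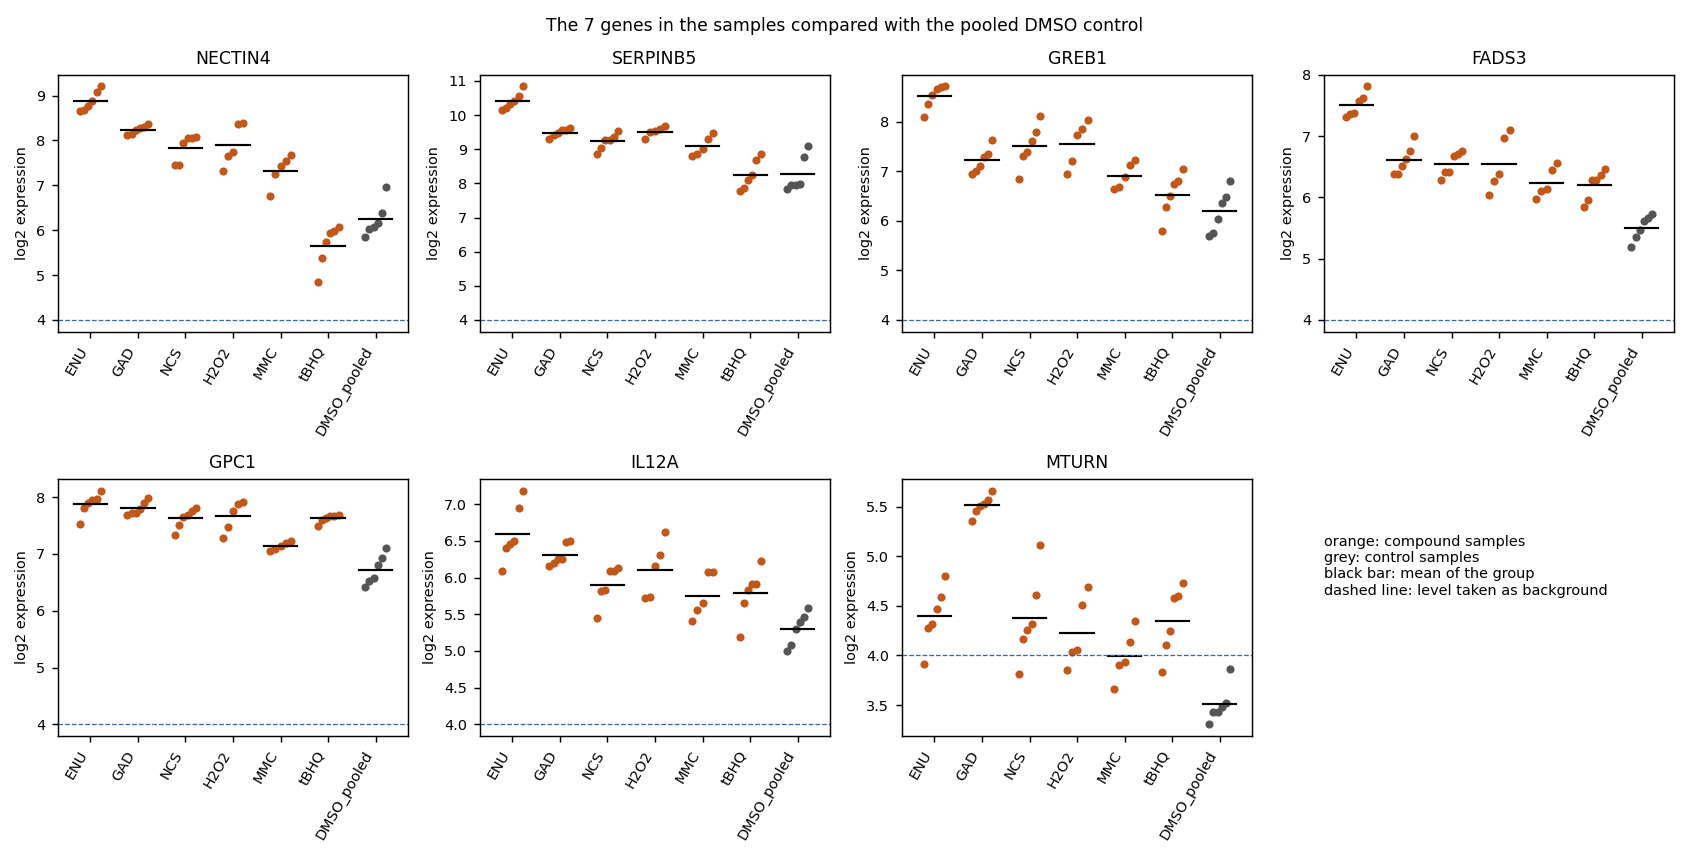
Log2 expression (vertical axis) of each gene in every sample of the 6 compounds (orange) and DMSO_pooled (grey), with a bar at the mean of each group and a dashed line at 4, the level taken as background. ENU is the highest group for all but MTURN, in which GAD is, and tBHQ is level with or under the control for SERPINB5 and NECTIN4.

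**Figure D3:**
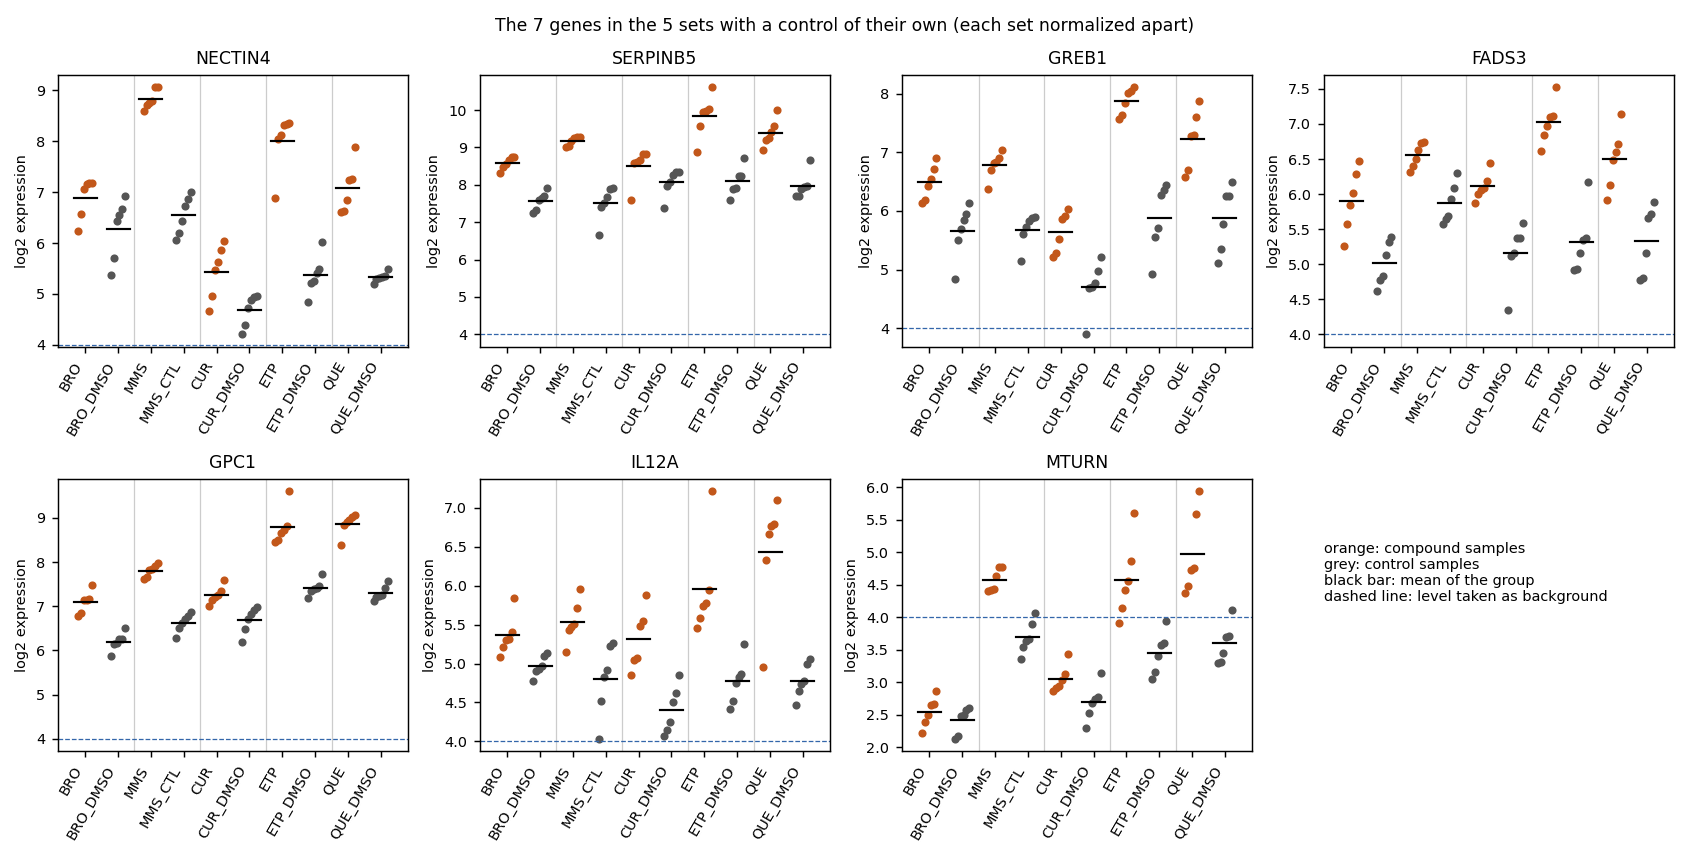
Log2 expression of each gene in every sample of BRO, MMS, CUR, ETP and QUE (orange), each left of its own control (grey), with a bar at the mean of each group. The sets look normalized apart, and MTURN in BRO and CUR stays under the dashed line at 4.

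Whether the 7 genes differed between compounds was tested in the 6 compounds whose arrays look normalized together. No contrast with the control enters, but the compound samples are those by which the genes were chosen. These tests, and those of pairs of compounds below, are therefore not independent of the choice. Equality of the 6 compound means was rejected for all 7 genes by limma's moderated F test, at an adjusted p under 0.05 and a range of at least 1.5-fold. Of all probe sets tested, 49.1% were called by the same rule. The 6 compound means spanned 3.22 for NECTIN4 (adjusted p = 3.3e-15), 2.16 for SERPINB5 (5.4e-11), 1.98 for GREB1 (5.2e-09), 1.52 for MTURN (1.7e-08) and 1.31 for FADS3 (7.3e-09). They spanned 0.84 for IL12A (0.00018) and 0.74 for GPC1 (7.8e-06). The second probe set of FADS3 spanned 1.28 (4.2e-11), and that of GPC1, mostly at background, 0.50 (0.032) and was not called.

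Among the 15 pairs of compounds, 44 of 105 gene and pair differences were called, against 14.2% over all probe sets and pairs, with p adjusted over all of them. ENU took part in 25 of these, tBHQ in 17, GAD in 14, MMC in 13, NCS in 10 and H2O2 in 9. Of 42 differences that involved neither ENU nor tBHQ, 7 were called, close to the 14.2% of all probe sets called over the same 6 pairs. The pair of NCS and H2O2 had none of 7, where 0.0706% of all probe sets were called higher in NCS and 0.0275% lower. For that pair the differences of the 7 genes lay between -0.29 and 0.15, with intervals that reached from -0.67 to 0.51 at their widest, which does not show that both compounds acted alike.

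ENU stood above MMC for 6 of the 7 genes (3.89% of all probe sets higher), above NCS for 5 (5.86%), above tBHQ for 5 (8.1%), above H2O2 for 4 (4.39%) and above GAD for 4 (10.5%). NECTIN4, SERPINB5, GREB1 and FADS3 were higher in ENU than in each of the other 5 compounds. For NECTIN4 the smallest of these was ENU minus GAD, 0.64 (95% interval 0.24 to 1.03, adjusted p = 0.0093 in limma), and without ENU replicate 4 it fell to 0.57, under the 1.5-fold minimum. For SERPINB5 it was ENU minus H2O2, 0.90 (0.52 to 1.28, 0.00021). For GREB1 it was again ENU minus H2O2, 0.96 (0.52 to 1.40, 0.00055), and for FADS3 ENU minus GAD, 0.90 (0.60 to 1.19, 6.1e-06). The ENU samples of FADS3, at 7.30 to 7.81, all lay above the highest sample of any other compound of the set, 7.10 in H2O2.

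tBHQ stood at the other end for NECTIN4 and SERPINB5. Both genes were called higher in each of the other 5 compounds than in tBHQ. For NECTIN4 these differences were 3.22 in ENU (95% interval 2.82 to 3.61), 2.58 in GAD (2.19 to 2.97), 2.23 in H2O2 (1.82 to 2.65), 2.18 in NCS (1.79 to 2.58) and 1.67 in MMC (1.26 to 2.08). For SERPINB5 they were 2.16 in ENU (1.79 to 2.52), 1.26 in H2O2 (0.88 to 1.64), 1.23 in GAD (0.87 to 1.59), 0.97 in NCS (0.61 to 1.33) and 0.83 in MMC (0.45 to 1.21). All 10 had an adjusted p of 0.00054 or less in limma. In NECTIN4 the highest tBHQ sample, at 6.08, was below the lowest sample of each of the other 5 compounds, the lowest of which was 6.76 in MMC. Of all probe sets, 8.1% were higher in ENU than in tBHQ, 12.8% in GAD, 4.92% in H2O2, 6.14% in NCS and 5.47% in MMC.

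GREB1 was higher than in tBHQ in 4 compounds, by 1.98 in ENU, 1.02 in H2O2, 0.98 in NCS and 0.69 in GAD (adjusted p = 0.0085 in limma), and the GAD difference fell to 0.54, under the fold minimum, without tBHQ replicate 4. MMC minus tBHQ was 0.38 (95% interval -0.06 to 0.82). GREB1 was also called higher in H2O2 than in MMC, by 0.64 (adjusted p = 0.027; 0.141% of all probe sets higher), and in NCS than in MMC, by 0.60 (0.031; 0.196%). Both calls changed under other settings. Neither was made with p adjusted over each pair alone. The adjusted p in limma was then 0.43 for H2O2 minus MMC and 0.21 for NCS minus MMC. With the replicate block H2O2 minus MMC was 0.55, under the fold minimum, without H2O2 replicate 3 it had an adjusted p of 0.072, and NCS minus MMC had 0.079 without MMC replicate 1.

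FADS3 in GAD, NCS, H2O2 and MMC differed from tBHQ by 0.41 (95% interval 0.12 to 0.71), 0.34 (0.05 to 0.64), 0.35 (0.04 to 0.67) and 0.04 (-0.27 to 0.35), none of them called. Its 10 called differences over both probe sets were those of ENU with each other compound. GPC1 was called in 2 pairs, higher in ENU than in MMC by 0.74 (0.52 to 0.97, adjusted p = 1.3e-06 in limma) and higher in GAD than in MMC by 0.66 (0.44 to 0.89, 8.6e-06; 13.3% of all probe sets higher). For GPC1, MMC minus tBHQ was -0.49 (-0.71 to -0.26, 0.00062), past the threshold but short of the fold minimum. ENU, GAD, NCS and H2O2 minus tBHQ lay between 0.00 and 0.26 for this gene. IL12A was higher in ENU than in MMC by 0.84 (0.48 to 1.21), than in tBHQ by 0.81 (0.47 to 1.16) and than in NCS by 0.69 (0.35 to 1.04), with adjusted p of 0.00025, 0.00022 and 0.0014. Without ENU replicate 5 the IL12A difference between ENU and NCS was 0.58, under the fold minimum.

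MTURN alone was highest in GAD. GAD minus MMC was 1.52 (95% interval 1.16 to 1.88), GAD minus H2O2 1.28 (0.93 to 1.64), GAD minus tBHQ 1.17 (0.82 to 1.51) and GAD minus NCS 1.13 (0.79 to 1.48). ENU minus GAD was -1.12 (-1.46 to -0.78), where 8.75% of all probe sets were lower. All 5 had an adjusted p of 1.5e-06 or less in limma. The GAD samples, at 5.36 to 5.66, were above every sample of the other 5 compounds, the highest of which was 5.11 in NCS. The 10 pairs without GAD differed by -0.35 to 0.40 and none was called. The means were just under 4 in MMC, 4.23 in H2O2, 4.35 in tBHQ, 4.38 in NCS and little more in ENU, so these 5 compounds lay close to background.

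**Figure D4:**
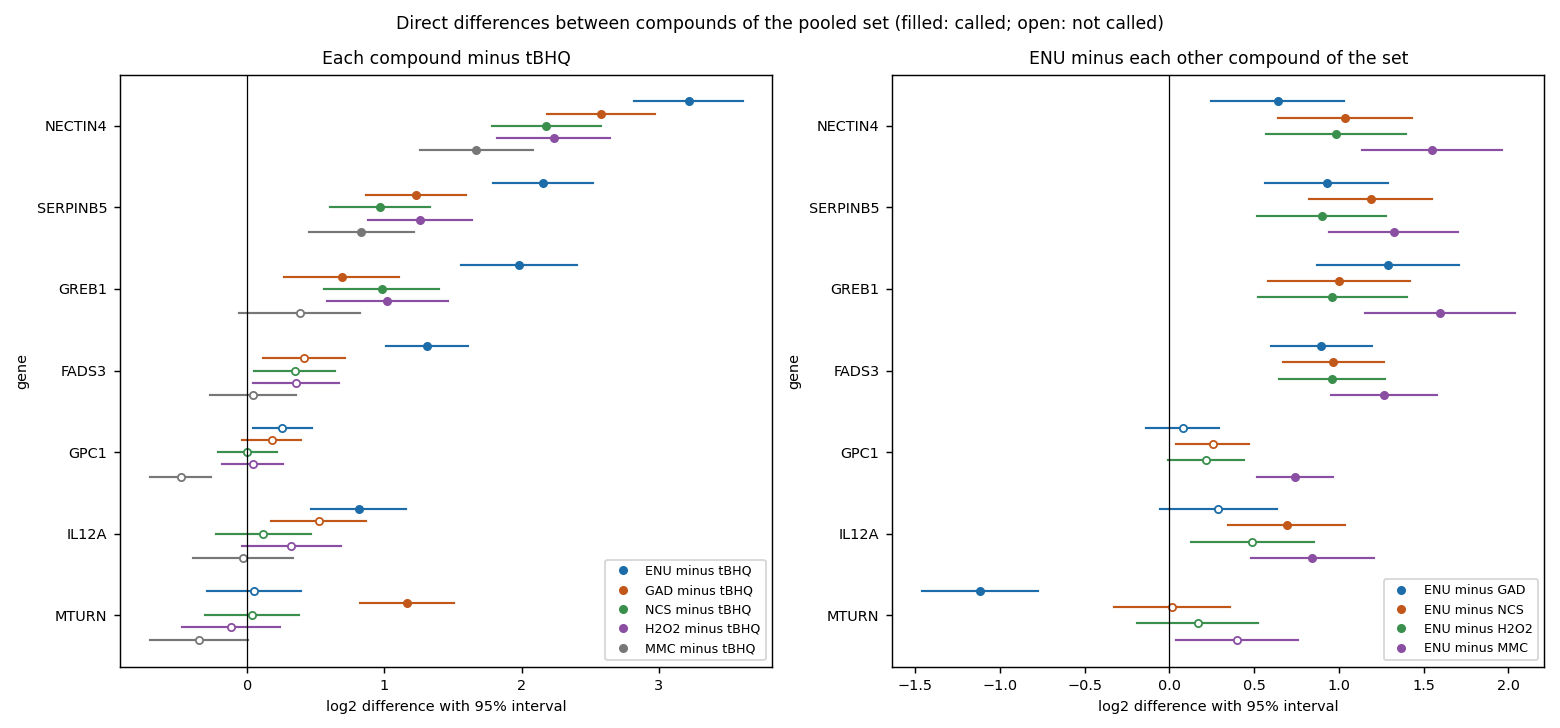
Direct log2 differences between compounds of the set with DMSO_pooled, with 95% intervals, as each compound minus tBHQ (left) and ENU minus each of the others (right), filled where called. All 5 differences from tBHQ are filled for NECTIN4 and SERPINB5, and MTURN lies at -1.12 for ENU minus GAD.

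How alike the genes were over the 11 compounds is given as a description. The 11 differences share the control in 6 compounds, so the points are not independent. Pearson's r was 0.94 between NECTIN4 and SERPINB5 and 0.93 between GREB1 and FADS3. NECTIN4 and GREB1 had 0.85, SERPINB5 and GREB1 0.86, and GPC1 and IL12A 0.74. MTURN had 0.24 with GREB1, 0.28 with FADS3 and 0.32 with SERPINB5, and its highest value was 0.60 with GPC1. The scatter of NECTIN4 against SERPINB5 thus ran from tBHQ at the low end to ENU at the high end, while MTURN ordered the compounds differently.

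Within groups the picture differed from that over compounds. After the group means were taken out, the 21 pairs of genes over 100 samples had r between -0.25 (SERPINB5 and GREB1) and 0.52 (NECTIN4 and FADS3), with a median of 0.32, and 19 were above 0. NECTIN4 and SERPINB5, at 0.94 over compounds, had 0.08 within groups. Samples of the same replicate number deviated together in most comparisons, so these values share that part.

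**Figure D5:**
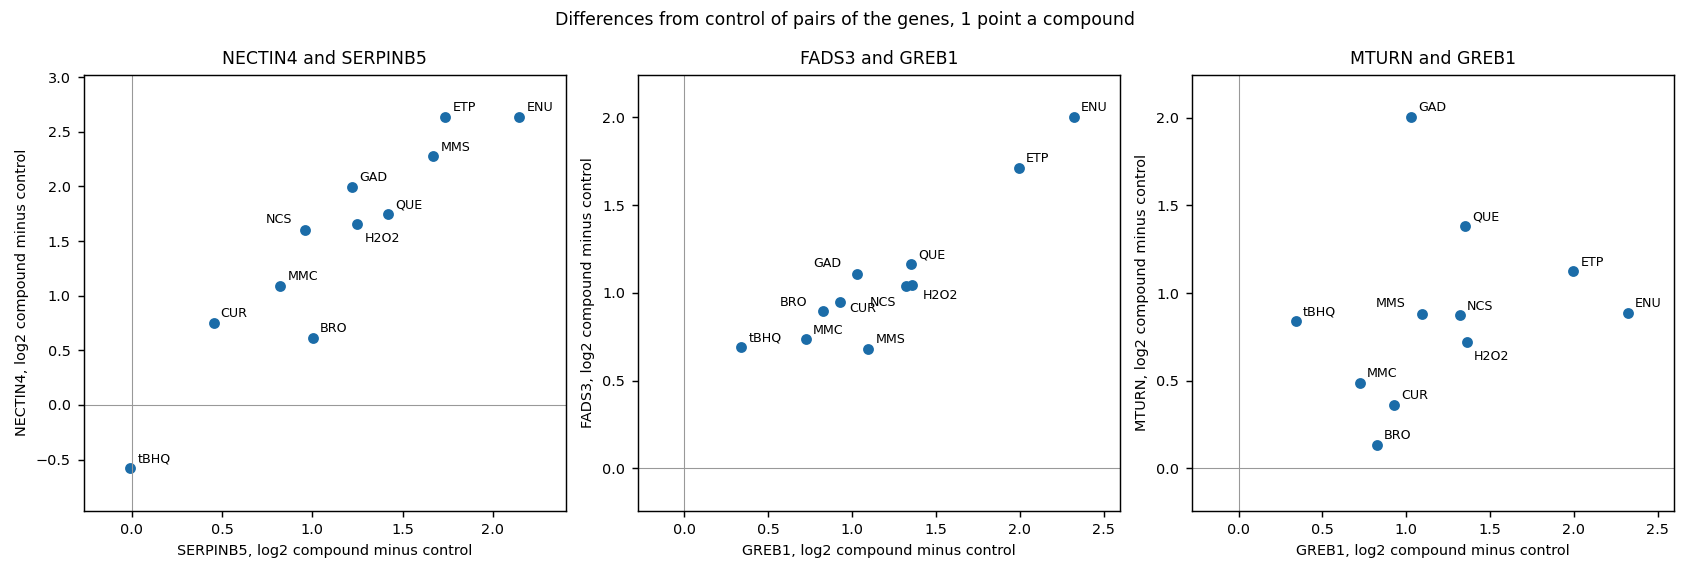
Log2 difference from control of one gene against another, 1 labelled point for each of the 11 compounds. NECTIN4 and SERPINB5 (r = 0.94) and FADS3 and GREB1 (r = 0.93) lie along a line, and in MTURN against GREB1 (r = 0.24) GAD and ENU stand apart.

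The genes whose 11 differences were most like those of each member were listed over 3356 candidates that spanned at least 1. For NECTIN4 they were IER5 (r = 0.95), ACER2 (0.94) and INPP5D (0.92). For SERPINB5 they were DUSP11 (0.96), ACER2 (0.94) and TP53I3 (0.92), so that ACER2, an alkaline ceramidase, was in both. All 5 of these genes were lowest in tBHQ and highest in ENU. GREB1 was nearest to PSTPIP2 (0.94), TREM2 (0.94) and LRATD1 (0.93), and FADS3 to LINC02086 (0.94), FCRLA (0.92) and DNAI3 (0.91), all 6 highest in ENU. IL12A was nearest to TBC1D24 (0.94), PRR9 (0.93) and MAGEH1 (0.90), and GPC1, the least well matched, to ZNF829 (0.83), TMEM47 (0.78) and ERO1B (0.77). These 6 were highest in QUE. MTURN was nearest to BEX2 (0.94), BBS4 (0.91) and AKAP12 (0.89). These values describe 11 points that partly share a control.

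Of the well known p53 targets, CDKN1A, the p21 cell cycle inhibitor, had its largest differences in GAD (1.37 ± 0.07), ETP (1.32 ± 0.09) and BRO (1.21 ± 0.12), and MDM2, which degrades p53, in ETP (1.18 ± 0.09) and BRO (1.10 ± 0.12). CDKN1A was called higher in 9 compounds and MDM2 in 8. ENU, which had the highest mean of its set for 6 of the 7 genes, gave 0.81 ± 0.08 for CDKN1A and 0.66 ± 0.10 for MDM2, below GAD for both. Over the 11 compounds r with CDKN1A was 0.63 for NECTIN4, 0.59 for SERPINB5, 0.39 for GPC1, 0.38 for GREB1, 0.36 for MTURN, 0.26 for FADS3 and 0.08 for IL12A. With MDM2 it was 0.70 for NECTIN4, 0.66 for SERPINB5, 0.48 for GREB1, 0.36 for GPC1, 0.30 for FADS3, 0.19 for IL12A and 0.16 for MTURN. The 10 listed p53 genes had 61 of 110 differences called higher and none lower, against 3.67% and 4.22% of all genes tested. TP53I3 (2.48 ± 0.22 in ENU), FAS (2.09 ± 0.20 in ENU) and TP53INP1 (2.05 ± 0.12 in ETP) had the largest.

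The NRF2 genes ordered the compounds another way. HMOX1, heme oxygenase 1, differed by 4.49 ± 0.11 in tBHQ and 4.17 ± 0.22 in BRO, the compounds with the lowest NECTIN4 differences, and by 0.78 ± 0.15 in ENU. Its r with NECTIN4 was -0.70 and with SERPINB5 -0.55. NQO1, a quinone reductase, differed by 1.31 ± 0.08 in tBHQ and was called in 6 compounds, as was HMOX1. The listed NRF2 genes had 47 of 99 differences called higher and 1 lower, the largest being AKR1C1 in tBHQ (6.22 ± 0.18).

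Relatives of the 7 genes were listed by family and tested in the same way, with 1 probe set per gene. Over all genes tested and all compounds, 3.67% of differences were called higher and 4.22% lower, and each list's own share is given in brackets beside its count. No gene of the 6 lists of relatives was called higher in 7 or more compounds, and the most was 5, for SULF2. Among desaturases and elongases other than FADS3, 11 of 14 were tested and 6 of 121 differences were called higher (4.96%) and 7 lower (5.79%). SCD fell by 1.62 in GAD (adjusted p = 7e-08 in limma), SCD5 fell by 1.07 in GAD (1.9e-07) and ELOVL2 was lower in GAD by at least 0.98. FADS1 was higher in ENU, tBHQ and MMS. Among glypicans, syndecans and heparan sulfate enzymes other than GPC1, 14 of 19 were tested, with 8 of 154 called higher (5.19%) and 13 lower (8.44%). GPC6, another glypican, fell by 2.44 in MMS (1.3e-06), the compound with a GPC1 difference of 1.17, and SDC2 fell by 2.45 in GAD (3.8e-07). SULF2, a sulfatase that trims heparan sulfate, rose in NCS, H2O2, ENU, ETP and QUE, by at least 1.55 in ETP from a control at background (3.6e-05).

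Of the IL-12 family, 3 of 9 relatives of IL12A were tested, with 3 of 33 differences called higher (9.09%) and none lower. IL12B, which pairs with p35 in interleukin 12, was under 4 in all groups. EBI3, which pairs with it in interleukin 35, was higher in ETP (5.20, against 3.95 in ETP_DMSO, adjusted p = 0.0016 in limma) and in NCS by at least 0.79 (0.0085), with both control means at background. Of the clade B serpins other than SERPINB5, 3 of 12 were tested, with 2 of 33 differences called in each direction (6.06%). SERPINB7 was lower and SERPINB8 higher in GAD and tBHQ. Of nectins and nectin-like genes 6 of 11 were tested, with 2 of 66 differences called in each direction (3.03%). CADM1 fell by 1.33 in GAD (8.7e-07), and PVR, the poliovirus receptor, rose by 0.93 in QUE (0.017). Of the estrogen receptor and its targets beside GREB1, 6 of 11 were tested, with 3 of 66 called higher (4.55%) and 10 lower (15.2%). CA12 fell by 2.97 in GAD (2.6e-06) and GATA3 by 1.57 in MMS (1.1e-05), where GREB1 differed by 1.03 and 1.10.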

How the data were processed

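The 101 Affymetrix HT HG-U133+ PM arrays hold 17 groups, mapped from the sample titles. Partek and GCRMA gave the deposited log2 values, per the submitters' processing notes, with no version given in the sources used here. Array quantiles fell into 6 sets that look normalized apart, so tests stayed within a set, and nothing was renormalized. ETP_DMSO replicate 2 and its repeat array, labelled 2-2, differed less (SD 0.179) than any other pair of that group (next 0.235) and were averaged into 1 sample.

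The 102 array control probe sets were left out, and a probe set was tested where at least 1 group mean reached 4. Each compound was fitted with its control, and the 6 compounds of the common set with DMSO_pooled in 1 fit, by lmFit and eBayes of limma 3.58.1 in R 4.3.3. Benjamini-Hochberg adjustment ran over all probe sets, and for pairs over all 15 pairs together. Listed genes used their probe set with the highest mean. Genes were named by a rule: the 7 genes, up to 3 called genes with the largest difference in each list of relatives, 4 comparators (CDKN1A, MDM2, NQO1 and HMOX1), and the 3 genes most like each of the 7. FADS1 and IL12B, outside that rule, were named after their values were seen.

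Every member, list and test was chosen with earlier results of these data known. Gene names and promoters come from RefSeq tables of GRCh38.p14. Samples of the same number deviated together (every r over 0.1) in all compounds with their controls but 3, and in 14 of 15 pairs of compounds. In those 3, MMS, ETP and QUE, the lowest r was -0.29, 0.055 and 0.091. The labels name no batch. The alternatives changed the filter, the summary of probe sets, the normalization, the variance model, the fold minimum, the block, the samples in the fit, the adjustment, the repeat array and the libraries used. The tests were checked on simulated data. The number of arrays and the signal over background limit the precision.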

Additional observations from a re-analysis of the deposited data

Results flagged for a closer look

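In 8 of 119 groups of the 7 genes 1 sample lay far from the others of its group by Dixon's criterion, which chance meets in about 1 in 20 groups. NECTIN4 was at 6.88 in ETP replicate 3, against 8.05 to 8.36 in the other 5 samples. SERPINB5 was at 7.61 in CUR replicate 5, against 8.59 to 8.81, and at 8.67 in QUE_DMSO replicate 1, against 7.69 to 7.97. FADS3 was at 6.18 in ETP_DMSO replicate 2, against 4.92 to 5.37. The library labelled ETP replicate 2 was high for GPC1 (9.60, against 8.45 to 8.80) and IL12A (7.21, against 5.46 to 5.94). The library labelled QUE replicate 2 was low for GPC1 (8.39, against 8.84 to 9.07) and IL12A (4.96, against 6.33 to 7.09).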

How the results depend on the processing

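Of the 59 differences called against the controls, alternatives gave 46 to 63, and leaving out 1 replicate at a time 52 (without DMSO_pooled replicate 4) to 62. With probe sets averaged per gene, which takes in probe sets at background, 46 were called. All 7 genes passed the F test among compounds under 13 alternatives except the filter at 6, which left MTURN untested, and the mean of probe sets, each with 6, and leaving out 1 replicate gave 7 throughout. The 44 called pairs became 29 with the mean of probe sets, 53 with no fold minimum, and 39 to 44 under the other settings, and 42 to 46 leaving out 1 replicate. With the replicate number as a block, 63 differences from control, 7 genes in the F test and 43 pairs were called, and beyond the calls named beside the results it changed no other call of the 7 genes. Listed genes had 132 calls higher and 35 lower, with 130 to 143 and 34 to 39 under alternatives and 126 to 135 and 33 to 39 leaving out 1 replicate. Leaving out replicates and the libraries that stood apart were chosen for the lists after seeing the data. No result changed its direction once called. Signal near background limits MTURN and the second GPC1 probe set.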
